A study of Mus musculus with 6 samples.

Results

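Genes that answer to glucocorticoid hormone were followed in RNA of mouse brain synaptosomes, the pinched-off nerve terminals that are isolated from homogenised brain. The set holds 10 genes, taken by symbol from the gene name column of the array files: the hormone-induced genes Fkbp5, Sgk1, Tsc22d3, Pdk4, Plin4, Ddit4, Klf9 and Zbtb16, and the 2 receptor genes Nr3c1 and Nr3c2. They were measured by 11 of the 55681 probes on the array, and all 10 genes are among the 20975 that passed the filter on dim probes. Every one of the 11 probes was well above background on all 6 arrays. Each probe was a single spot, and none shared a run of 20 bases with another probe on the array.

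The study compared knock-in with wild-type mice, 3 samples each, with 1 one-colour Agilent array per sample. The series title names the FMR1 transcript and FXTAS, the fragile X-associated tremor/ataxia syndrome. Knock-in is the word of the sample names and of the design text; the same samples carry knock-out in their genotype field. The allele, strain, age and sex, any hormone level or treatment, and whether the samples came from separate animals are not given in the sources used here, so the tests weigh differences against a spread between samples that may be partly or wholly technical.

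Corticosterone, the main glucocorticoid of rodents, crosses into neurons and glia and binds 2 related nuclear receptors, the glucocorticoid receptor encoded by Nr3c1 and the mineralocorticoid receptor encoded by Nr3c2. Without hormone the receptor rests in a complex with the chaperone HSP90 and co-chaperones. With hormone it enters the nucleus, binds response elements built of a pair of inverted short arms, and raises transcription of genes such as Fkbp5, whose product in turn lowers the receptor's affinity for hormone.

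The response element is shown first because it is the kind of sequence that the receptor binds. It was searched as AGAACA, 3 bases of any kind and TGTTC, and as the single arm AGAACA, on both strands, in RefSeq windows of 300 bases (250 before to 50 after a start site, build GRCm38.p6). Every full element also holds the single arm. Windows were at hand for 8 of the 10 genes, 15 windows in all, 6 of them at different starts of Sgk1. Sequence outside the windows was not searched, so elements farther from a start site would be missed. The full element was found for Sgk1 alone among the 8 and in 0.0487% of all 32851 windows. The single arm was found for Sgk1 and Tsc22d3, 2 of the 8 genes, where 5750 of all 27025 genes with a window had it. By window, it was found in 19.0% of all windows. The Sgk1 stretch lies at chr10:21993693-21993722 on the plus strand, with the element starting 189 bases before the start site. The Tsc22d3 stretch lies at chrX:140600690-140600719 on the minus strand, with a single arm in reverse orientation 185 bases before the start. Capitals mark the match.
Sgk1: atgcggaaAGAACAGAATGTTCtcggagat
Tsc22d3: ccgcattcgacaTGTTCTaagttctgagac
Both are matches of letters, not measured binding sites. The full element occurred near a start of 14 genes, of which Sgk1 is the 1 that was measured here. Of the 1877 measured genes with a single arm, 162 or 8.63% had all knock-in arrays above all wild-type arrays, close to the 7.87% of all genes.

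Signals were scaled to the 75th percentile of each array, which was 883 to 910 for knock-in, 823 for wild-type replicate 3 and 578 and 580 for wild-type replicates 1 and 2. The last 2 arrays were on a slide of their own, and the other 4 shared slide 1, so that only wild-type replicate 3 can be compared with knock-in within a slide. The labels give the RNA input as 0.2 µg, except for knock-in replicate 1, where they give 0.0. All 10 neuronal and synaptic marker genes tested were well above background on every array, as were all 8 astrocyte, 9 oligodendrocyte and 8 microglial markers. Fmr1 read 0.82 higher (log2, SE 0.10, limma's adjusted p = 0.198) in knock-in, without overlap of the groups.

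None of the 10 genes passed limma's adjusted p of 0.05 over all genes, a threshold that 2 genes or 0.00954% passed. At an unadjusted p under 0.05, 5 members were higher in knock-in and 0 lower, where 4.45% of all genes were higher and 6.4% lower. For those 5, Fkbp5, Sgk1, Tsc22d3, Pdk4 and Plin4, the 3 knock-in arrays lay wholly above the 3 wild-type arrays, which was so for 7.87% of all genes, and 0 members lay wholly below, where 12.5% of all genes did. All 8 hormone-induced members had a positive difference, against 40.9% of all genes. Both receptor genes had a negative one, as did 12406 of all 20975 genes. The median difference (log2, knock-in less wild type) over the 10 members was 0.39, and over the 8 hormone-induced ones 0.44, beside -0.05 over all genes.

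**Figure D1:**
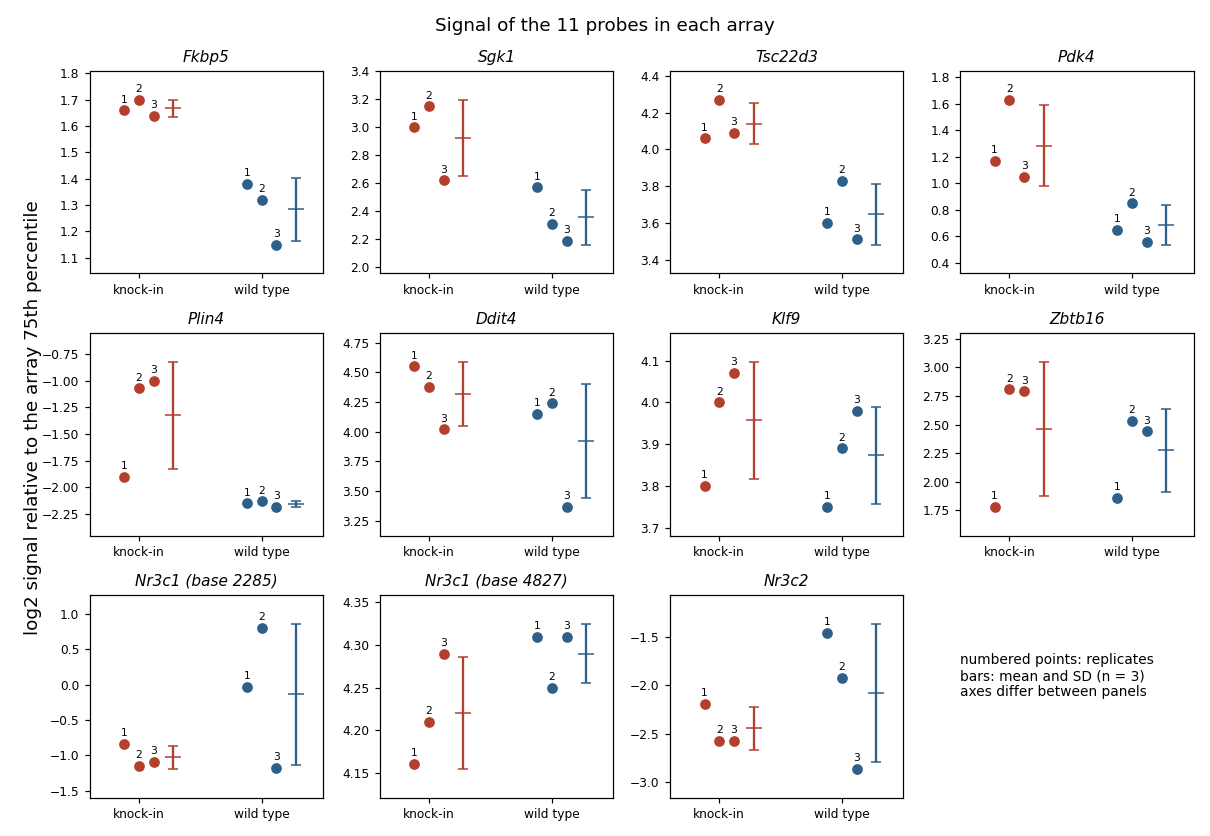
Log2 signal of each of the 11 probes relative to the 75th percentile of its array (vertical axis, scaled separately in each panel), with points for the 3 knock-in and 3 wild-type arrays, numbered by replicate, and bars for mean and SD (n = 3). In the panels of Fkbp5, Sgk1, Tsc22d3, Pdk4 and Plin4 every knock-in point lies above every wild-type point, while in the other panels the groups overlap.

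Fkbp5 encodes a co-chaperone of the receptor complex and is among the most used readouts of receptor activity. Its probe lies on chromosome 17 at 28536060 to 28536119 (mm9, minus strand), from base 3425 of the transcript. Processed intensities were 2790, 2943 and 2827 in knock-in replicates 1, 2 and 3 against 1503, 1452 and 1825 in the wild-type replicates of those numbers. Scaled to the 75th percentile, the log2 values were 1.66, 1.70 and 1.64 in knock-in against 1.38, 1.32 and 1.15 in wild type. The knock-in arrays spanned only 0.06 and stood 0.26 above the highest wild-type array. The difference was 0.38 (SE 0.10), or 1.30-fold, with limma's unadjusted p = 0.00861, adjusted p = 0.405, and a two-sided exact permutation test gave 0.1, which is the lowest p that groups of 3 can reach.

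Tsc22d3 encodes GILZ, the glucocorticoid-induced leucine zipper protein, which restrains inflammatory transcription factors. Its probe is on chromosome X at 137074094 to 137074153 (mm9, minus strand, from base 2062). Processed intensities were 14713, 17587 and 15513 in knock-in against 7035, 8263 and 9367 in wild type, or 4.06, 4.27 and 4.09 against 3.60, 3.83 and 3.51 after scaling. Knock-in replicate 2 was highest and wild-type replicate 3 lowest, with a gap of 0.23 between the groups. The difference of 0.49 (SE 0.13), or 1.41-fold, had the smallest p of the set, with limma's unadjusted p = 0.00672 and adjusted p = 0.399.

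Sgk1 encodes the serum- and glucocorticoid-regulated kinase, which acts on ion channels and transporters, and a window at 1 of its starts held the full element shown above. The probe lies on chromosome 10 at 21719507 to 21719566 (mm9, plus strand, from base 2903). Intensities were 7045, 8039 and 5614 in knock-in against 3435, 2871 and 3756 in wild type, and the scaled log2 values 3.00, 3.15 and 2.62 against 2.57, 2.31 and 2.19. Here the groups came close, since knock-in replicate 3 lay only 0.05 above wild-type replicate 1. The difference was 0.57 (SE 0.17), or 1.48-fold (limma, unadjusted p = 0.0153, adjusted p = 0.4135).

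Pdk4 and Plin4 belong to fuel metabolism. Pdk4 encodes a kinase that switches off pyruvate dehydrogenase and so spares glucose, and it was probed on chromosome 6 at 5433441 to 5433500 (mm9, minus strand, from base 3303). Its intensities were 1989, 2803 and 1889 in knock-in against 909, 1043 and 1215 in wild type, which became 1.17, 1.63 and 1.05 against 0.65, 0.85 and 0.56. Knock-in replicate 2 stood out above replicates 1 and 3, and the gap between the groups was 0.21. The difference was 0.60 (SE 0.17), or 1.51-fold (limma, unadjusted p = 0.0126, adjusted p = 0.413).

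Plin4, which encodes a coat protein of lipid droplets, was probed on chromosome 17 at 56240055 to 56240114 (mm9, minus strand, from base 5654). With intensities of 237, 432 and 454 in knock-in against 131, 133 and 181 in wild type, it gave low signals that were still well above background. The wild-type arrays were nearly equal after scaling, at -2.15, -2.13 and -2.18, while knock-in read -1.90, -1.07 and -1.0. Replicate 1 thus lay near wild type and replicates 2 and 3 far above it. The difference of 0.83 (SE 0.24), or 1.77-fold, was the largest of the 10 genes (limma, unadjusted p = 0.0126, adjusted p = 0.413), and it was 1.11 without knock-in replicate 1 and 0.60 with normexp background correction.

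Ddit4 encodes REDD1, an inhibitor of mTOR complex 1 that hypoxia, energy stress and glucocorticoids induce. Its probe is on chromosome 10 at 59412486 to 59412545 (mm9, minus strand, from base 1562). Intensities were 20752, 18964 and 14759 in knock-in against 10253, 11001 and 8524 in wild type, or 4.55, 4.38 and 4.02 against 4.15, 4.24 and 3.37 after scaling. The groups overlapped, with knock-in replicate 3 below wild-type replicates 1 and 2 and wild-type replicate 3 far below the rest. The difference was 0.40 (SE 0.26; limma, adjusted p = 0.560; exact permutation p = 0.3), and it depended on wild-type replicate 3: without that array it was 0.12, and with slide as a block, which compares knock-in with that array alone, 0.95 (SE 0.23, adjusted p = 0.920).

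The transcription factor genes showed the smallest differences among the hormone-induced members. Klf9, a Krüppel-like factor that glucocorticoid and thyroid hormone induce in neurons, was probed on chromosome 19 at 23240410 to 23240469 (mm9, plus strand, from base 2271). It read 12318, 14574 and 15335 in knock-in against 7780, 8621 and 12967 in wild type, but 3.80, 4.00 and 4.07 against 3.75, 3.89 and 3.98 after scaling. The difference was 0.09 (SE 0.12; limma, adjusted p = 0.757), and it was -0.02 with slide as a block. Zbtb16, which encodes the zinc finger repressor PLZF, was probed on chromosome 9 at 48462419 to 48462478 (mm9, minus strand, from base 5037). It read 3040, 6369 and 6275 in knock-in against 2098, 3348 and 4466 in wild type, or 1.78, 2.81 and 2.79 against 1.86, 2.53 and 2.44. The low arrays were replicate 1 of each group, and the other 4 arrays stood apart from them. The difference was 0.18 (SE 0.32; limma, adjusted p = 0.811), 0.52 without knock-in replicate 1, 0.01 when replicate 2 and 0.02 when replicate 3 of knock-in was left out, 0.02 with slide as a block, and -0.02 without wild-type replicate 1.

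Zbtb16 was lowest on the arrays where a regional marker list was highest. Striatal neuron markers, 10 of 10 measured and 9 well above background on every array, had summed levels of 334, 135 and 67.7 in knock-in against 240, 63.9 and 62.9 in wild type, in multiples of the 75th percentile, and were thus highest on replicate 1 of each group. Over the other 4 arrays Zbtb16 and the striatal sums ran in the same order. The summed level of choroid plexus and ependyma markers was also highest on replicate 1 of each group, at 1.96 in knock-in and 2.06 in wild type. Relative to the 6-array mean, those markers read 0.43 on knock-in replicate 1 and 0.57 on knock-in replicate 2. All 10 striatal markers were higher in knock-in, with a median of 0.69 and of 1.43 with slide as a block, and the groups overlapped for each of them. The part of tissue composition in the Zbtb16 values was not tested. In RNA of a whole synaptosome sample, which cells or parts of cells it held and how much RNA each carried cannot be told apart. With both of these arrays left out, a choice made after the values were seen, the Zbtb16 difference was 0.31 (SE 0.13; limma, adjusted p = 0.631).

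The 2 probes of the glucocorticoid receptor gene Nr3c1 lie on chromosome 18 at 39571641 to 39571700 and 39574183 to 39574242 (mm9, minus strand), from bases 4827 and 2285 of the transcript. The probe farther along the transcript gave intensities of 15737, 16846 and 17790 in knock-in against 11510, 11069 and 16337 in wild type. After scaling it was the steadiest signal of the set, at 4.16, 4.21 and 4.29 against 4.31, 4.25 and 4.31, a range of 0.16 over all arrays. Its difference was -0.07 (SE 0.09; limma, adjusted p = 0.730), and -0.48 where both probes were averaged. The other probe gave intensities of 495, 408 and 427 in knock-in against 566, 1008 and 362 in wild type, or -0.84, -1.15 and -1.09 against -0.03, 0.80 and -1.18. The wild-type arrays spanned 1.98 there and enclosed the knock-in values, so that its difference of -0.89 (SE 0.47) went with limma's adjusted p = 0.520 over 29318 probes. The probes of this gene therefore differed in size of difference and in spread.

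Nr3c2, the gene of the mineralocorticoid receptor, which binds corticosterone with higher affinity and is known for its expression in the hippocampus, was probed on chromosome 8 at 79766370 to 79766429 (mm9, plus strand, from base 2918). It read 193, 153 and 153 in knock-in against 210, 153 and 113 in wild type, or -2.19, -2.57 and -2.57 against -1.46, -1.92 and -2.86 after scaling. The wild-type arrays held both the highest and the lowest value. The difference was -0.37 (SE 0.35; limma, adjusted p = 0.660), -0.06 without wild-type replicate 1, -0.76 without wild-type replicate 3, and 0.41 (SE 0.26, adjusted p = 0.973) with slide as a block. Within an array, Nr3c2 minus Nr3c1 was -6.67 ± 0.28 (log2, SD, n = 3) in knock-in against -6.37 ± 0.72 (n = 3) in wild type, a change of -0.29 with an exact permutation p of 0.6; this ratio compares change between arrays, not the amounts of the 2 receptors. The difference lay within the spread of the wild-type arrays.

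**Figure D2:**
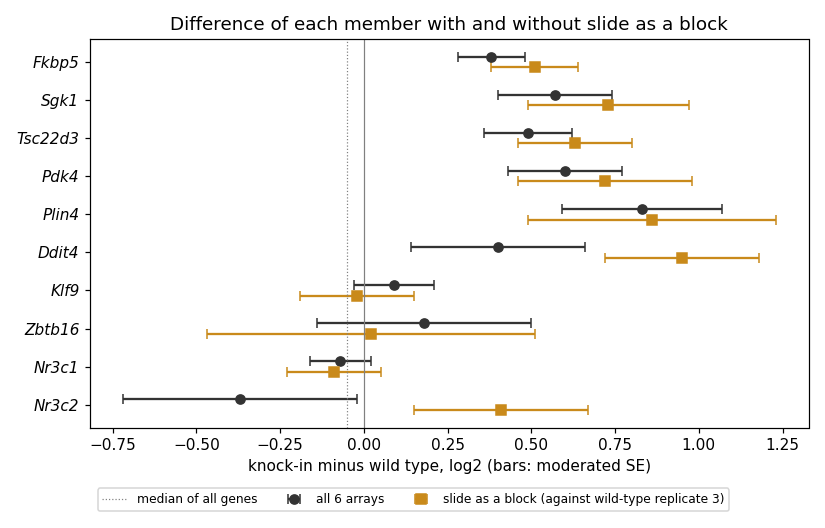
Log2 difference of each gene between knock-in and wild type (horizontal axis, positive where knock-in is higher), with moderated standard errors, from all 6 arrays (circles) and with slide as a block (squares), where knock-in is compared with wild-type replicate 3 alone. The dotted line is the median of all genes, -0.05; Ddit4 goes from 0.40 to 0.95 and Nr3c2 from -0.37 to 0.41.

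The sign of the 5 separated genes could not turn with slide as a block, since all their knock-in arrays exceed wild-type replicate 3, and only the size is informative. The differences were 0.51 (SE 0.13) for Fkbp5, 0.63 (SE 0.17) for Tsc22d3, 0.73 (SE 0.24) for Sgk1, 0.72 (SE 0.26) for Pdk4 and 0.86 (SE 0.37) for Plin4, each with limma's adjusted p = 0.973. Within slide 1, all 3 knock-in arrays exceeded wild-type replicate 3 for 7 members, the same 5 with Ddit4 and Nr3c2, which was so for 26% of all genes. Wild-type replicate 3 was the lowest of the 6 arrays for 7 of the 10 members, among them all 5 that separated. The share of all genes that were lowest on that array is not given here, so this count cannot be called particular to the members. Without wild-type replicate 3 the differences were 0.31 for Fkbp5, 0.42 for Tsc22d3, 0.48 for Sgk1, 0.53 for Pdk4 and 0.81 for Plin4. The 2 wild-type arrays then left are those of the other slide. Slide and genotype cannot be told apart in that comparison. An unadjusted limma p under 0.05 was lost by Sgk1 when wild-type replicate 3 or knock-in replicate 2 was left out, by Plin4 with slide as a block, by Plin4 and Pdk4 on slide 1 alone, and by Pdk4 without replicate 1 of both groups. Nr3c2 gained one, lower in knock-in, when wild-type replicate 3 was left out, and Ddit4 gained one, higher, with slide as a block, on slide 1 alone and with array weights.

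The members did not all share one order of arrays. Fkbp5 and Tsc22d3 were high on all 3 knock-in arrays by similar amounts, 0.16 to 0.22 and 0.16 to 0.38 above their own 6-array means. Sgk1 and Ddit4 were high on knock-in replicates 1 and 2, at 0.36 and 0.51 and at 0.43 and 0.26, but not on replicate 3, at -0.01 and -0.10. Plin4 and Zbtb16 did the reverse, at -0.16 and -0.58 on replicate 1, 0.67 and 0.44 on replicate 2 and 0.73 and 0.42 on replicate 3.

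**Figure D3:**
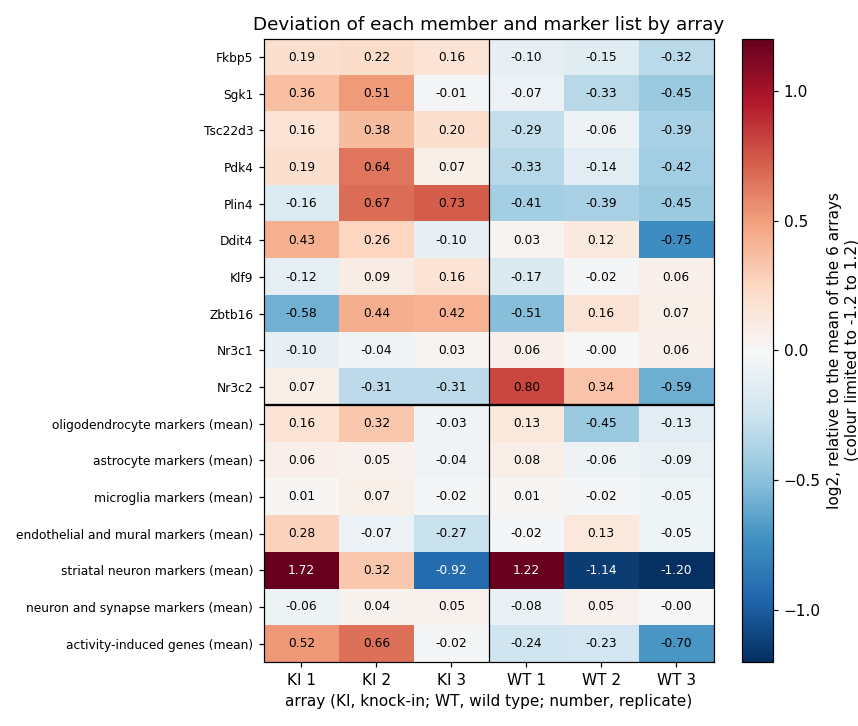
Log2 signal of each member, and mean of each marker list, relative to its own mean over the 6 arrays (colour and printed value, columns are arrays). Members from Fkbp5 to Plin4 are mostly above their mean on the left, in knock-in, and below it on the right; Plin4 is at -0.16 on knock-in replicate 1, striatal markers are at 1.72 and 1.22 on replicate 1 of each group, and activity-induced genes are at -0.70 on wild-type replicate 3.

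Several other gene groups differed between the arrays too, and their part in the result was not tested. The striatal list, given above, had the largest median shift of the cell type lists. Activity-induced transcripts, a list of 11 added after the values were seen (Fos, Fosb, Junb, Arc, Egr1, Egr2, Egr4, Nr4a1, Npas4, Btg2 and Ier2), had 11 of 11 members higher in knock-in. Their median difference was 0.82. For 5 the knock-in arrays were wholly above, where 7.87% of all genes were, and 8 had an unadjusted limma p under 0.05, where 4.45% of all genes were higher by that measure. Their summed level was 176 to 280 in knock-in and 96.4 to 146 in wild type, and relative to the 6-array mean they read 0.52, 0.66 and -0.02 in knock-in against -0.24, -0.23 and -0.70 in wild type, much as Sgk1 did. The oligodendrocyte markers, 9 of 9 measured and all higher in knock-in, summed to 202 to 275 in knock-in and 172 to 245 in wild type, with overlap. Their median difference was 0.26. Astrocyte markers summed to 145 to 153 against 140 to 166, with 4 of 8 higher, but Gfap was at 0.75 (SE 0.26), wholly above wild type and higher by each of its probes (0.67 to 0.91), while Slc1a2 was at -0.33 (SE 0.16), with overlap. Microglial markers summed to 197 to 206 against 197 to 224, with C1qa at 0.32 (SE 0.12), wholly above, and Cx3cr1 at -0.26 (SE 0.10), wholly below. Endothelial and mural markers, of which Tek was not measured, summed to 15.6 to 17.0 against 15.5 to 18.5, with 5 of 9 higher and a median of 0.01. Among them Cldn5 was at -0.99 (SE 0.30), wholly below, and Rgs5 at 0.59 (SE 0.30), with overlap. Choroid plexus and ependyma markers, 6 of 8 measured, summed to 0.679 to 1.96 against 0.592 to 2.06, with a median of 0.35 and overlap for each. These single markers were chosen after their values were seen. Of the blood list, Hba-a1 and Alas2 were measured and Hbb-b1 was not, and the sum was 57.8 to 103 in knock-in and 45.2 to 52.6 in wild type.

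The genes whose arrays resembled Fkbp5 most were sought among 19565 others that were well above background on every array. Among the nearest were the RNA helicase gene Ddx20 (Pearson r = 0.993, Spearman rho = 0.886) and Sh3bp4 (0.985 and 1.0), over 6 arrays. Their own differences were 0.18 and 0.67. Among the members, r with Fkbp5 was 0.930 for Tsc22d3, 0.910 for Sgk1, 0.873 for Pdk4, 0.781 for Plin4 and 0.753 for Ddit4, but 0.166 for Klf9, 0.117 for Zbtb16, -0.073 for Nr3c2 and -0.665 for Nr3c1. These values describe 6 shared arrays, in which any gene that differs between the groups resembles any other.

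Other genes known to be induced by glucocorticoids, a list of 28 that were all measured, lay mostly on the same side. Of these 20 were higher and 8 lower in knock-in, where 40.9% of all genes were higher. For 5 the knock-in arrays were wholly above and for 0 wholly below, where 7.87% and 12.5% of all genes were. In limma 0 passed the adjusted threshold, and 5 higher and 0 lower had an unadjusted p under 0.05, beside 4.45% and 6.4% of all genes. The median was 0.26, beside -0.05 over all genes, and 0.21 with slide as a block. Dusp1, a phosphatase that switches off MAP kinases, differed most, by 0.90 (SE 0.24), or 1.86-fold. It read 1.67, 1.71 and 1.12 in knock-in against 0.87, 0.75 and 0.18 in wild type. The clock gene Per1 differed by 0.58 (SE 0.17) and Cebpd, an acute-phase transcription factor gene, by 0.54 (SE 0.18), both without overlap. Dusp1 and Per1 are also induced by neuronal activity. The metallothionein gene Mt1, at -0.10 by its brightest probe and 0.23 by the other, and the glutamine synthetase gene Glul at -0.18 overlapped between groups; both were chosen after their values were seen.

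Hormone supply and the receptor machinery showed no common direction. Of 20 listed genes 19 were measured, 7 of them higher and 12 lower, with a median of -0.03 and 0 past the adjusted threshold in limma, 1 higher and 1 lower at an unadjusted p under 0.05. Knock-in lay wholly above for 1 gene and wholly below for 2, where it did for 7.87% and 12.5% of all genes. The co-chaperone gene Dnajb1 was at 0.27 (SE 0.10), wholly above wild type. Hspa8, which encodes a constitutive heat shock chaperone, was at -0.32 (SE 0.13) by its brightest probe, wholly below, and at 0.52 by another of its 3 probes. Abcb1a, the gene of the efflux pump that limits entry of steroids into the brain, was at 0.42 (SE 0.22), with overlap, and at 0.07 with slide as a block. Hsd11b1, which regenerates active hormone within cells, was at 0.15 (SE 0.24) and at -0.28 with slide as a block, and Fkbp4, the co-chaperone that opposes Fkbp5, at -0.02 (SE 0.16); both were chosen for their role after the values were seen.

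Peptides and receptors of the corticotropin axis were measured for 8 of 12 genes, 4 higher and 4 lower, with a median of -0.04; 0 had an adjusted or unadjusted limma p under 0.05. Mc4r was at 0.35 (SE 0.16), Crhbp, the gene of the protein that binds corticotropin-releasing hormone, at 0.28 (SE 0.13) and Pomc, which encodes the corticotropin precursor, at -0.25 (SE 0.12), with Crhbp wholly above and Pomc wholly below wild type. In this list 1 gene lay wholly above and 2 wholly below, where 7.87% and 12.5% of all genes did.

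Paralogues of the members had no common direction. Of 17 measured, 8 were higher and 9 lower (median -0.02, and -0.12 with slide as a block), and 0 passed the adjusted threshold in limma, with 1 higher and 0 lower at an unadjusted p under 0.05. That 1 was Klf15, a Krüppel-like factor that glucocorticoids also induce, which read -0.29, -0.30 and -0.43 in knock-in against -0.69, -1.01 and -0.98 in wild type. Its difference of 0.56 (SE 0.12), or 1.47-fold, went with limma's unadjusted p = 0.00329 and adjusted p = 0.389, both smaller than for any of the 10 members. Pdk1, a paralogue of Pdk4, was at -0.30 (SE 0.13), wholly below wild type, and the progesterone receptor gene Pgr at -0.28 (SE 0.13), also wholly below. Pdk2 and Pdk3, other paralogues of Pdk4, were at -0.05 and 0.07, with overlap. Of the paralogues of Tsc22d3, Tsc22d1 was at 0.46 (SE 0.24) and Tsc22d4 at 0.13 (SE 0.10), both wholly above wild type. Tsc22d2 was not measured. Pdk2, Pdk3 and the paralogues of Tsc22d3 were named after their values were seen. In this list 3 genes lay wholly above and 2 wholly below, where 7.87% and 12.5% of all genes did.

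Genes that act downstream of the members, among them substrates of Sgk1, the mTOR pathway that Ddit4 restrains and the pyruvate dehydrogenase and fatty acid oxidation steps around Pdk4, were all measured, 12 of 19 higher and 7 lower, with a median of 0.03. In limma 0 passed the adjusted threshold, and 2 higher and 0 lower had an unadjusted p under 0.05, beside 4.45% and 6.4% of all genes. These were Ucp2, the gene of a mitochondrial uncoupling protein, at 0.41 (SE 0.13) and Ndrg1, whose product Sgk1 phosphorylates, at 0.34 (SE 0.14). Cpt1a, which brings fatty acids into mitochondria, was at 0.26 (SE 0.11). All 3 were wholly above wild type. Of the 19 genes, 4 lay wholly above and 4 wholly below, where 7.87% and 12.5% of all genes did. Of the pyruvate dehydrogenase genes, named after their values were seen, Pdhb, Pdhx and Dlat were wholly below, at -0.13 (SE 0.09), -0.17 (SE 0.10) and -0.10 (SE 0.09). These differences were small, beside a median of -0.05 over all genes. Pdha1 was at 0.28 (SE 0.23), with overlap.

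**Figure D4:**
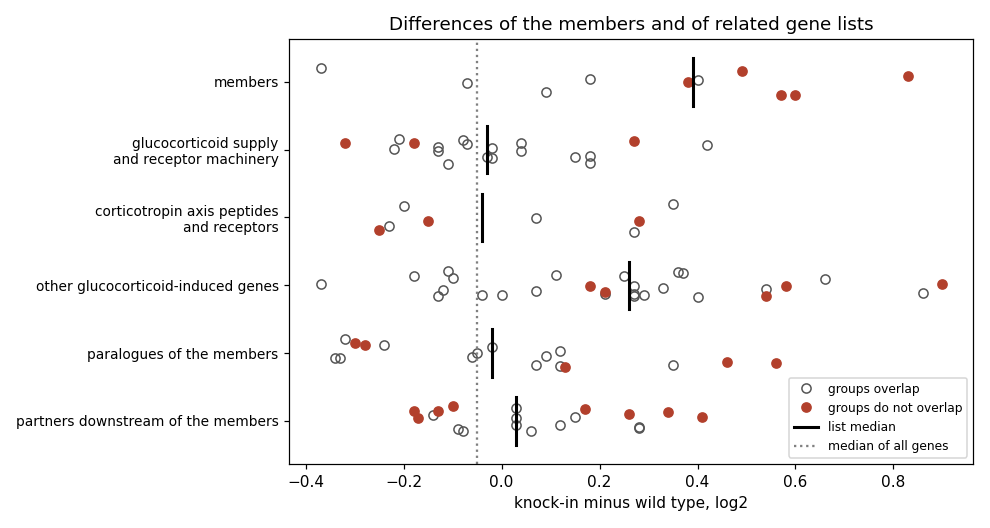
Log2 difference of every measured gene between knock-in and wild type (horizontal axis, positive where knock-in is higher), for the 10 members and 5 related lists (rows; vertical scatter within a row has no meaning). Filled points are genes whose groups do not overlap, black bars list medians, and the dotted line the median of all genes. The bars of the members (0.39) and of other glucocorticoid-induced genes (0.26) lie to the right, and the other 4 lie between -0.04 and 0.03. Lists not drawn also had positive medians: activity-induced 0.82, striatal 0.69, blood 0.58, choroid plexus and ependyma 0.35 and oligodendrocyte 0.26. Neuron, astrocyte, microglial, endothelial and hippocampal lists, also not drawn, had medians of -0.04 to 0.05.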

How the data were processed

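Total RNA of 6 brain synaptosome samples was labelled with Cy3. Per the file headers, the authors read the arrays with Agilent Feature Extraction 10.7.3.1 and deposited an intensity per spot corrected for background and for spatial trend on each array, with no step between arrays. The authors' deposited value table is in log2 units with column medians of 6.55 to 6.56, and the step that made its columns alike is unknown here.

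Processed intensities were taken to log2, and the 75th percentile of the non-control spots of each array was subtracted. Spots marked as outliers were left out unless every spot of the probe was marked on that array. The member probes, with 1 spot each, were therefore always kept, marked or not. Probes well above background on at least 3 of 6 arrays were kept (29318), and the brightest kept probe stood for a gene (20975 genes). Names came from the files and from RefSeq (GRCm38.p6); coordinates of probes are those of the files, on mm9. The comparison of genotypes used limma (version 3.58.1, R version 4.3.3), two-sided, with Benjamini-Hochberg adjustment over all genes. The fit was run on simulated arrays with independent noise and no slide effect, which cannot show how it performs with the slide layout here. Marker lists are given as sums. Single values had an exact permutation test. All differences are knock-in minus wild type with the moderated standard error (SE). The number of arrays limits the precision.

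Whether replicate numbers pair the samples is not known, and the main fit did not use them as pairs. Deviations of same-numbered arrays correlated at 0.398, -0.024 and 0.253, and those of differently numbered arrays at -0.396 to 0.154. The members and lists were chosen with earlier results of these data known, and so were the tests. All 10 members are named, with the 3 genes of smallest p of each pathway list, and the 3 nearest to Fkbp5, of which 1 is not reported here. No explanation of a difference was tested.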

Additional observations from a re-analysis of the deposited data

How the results depend on the processing

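The arrays number 3 a group, and slide 2 holds wild type only. Over 21 other ways of processing and 1 added after the data were seen, without replicate 1 of both groups, 0 members passed limma's adjusted 0.05 (4 to 6 had an unadjusted p under 0.05). Fkbp5, Sgk1, Tsc22d3, Pdk4, Plin4 and Ddit4 kept their direction in all of them, which for the first 5 could not be otherwise where arrays were left out or blocked by slide. The sign turned for Klf9 (-0.018) and Nr3c2 (0.412) with slide as a block and with slide 1 alone, for Nr3c1 with the authors' value table (0.014) and for Zbtb16 without wild-type replicate 1 (-0.025; up to 0.521, without knock-in replicate 1). The median over members, 0.39, was 0.573 with slide as a block and with slide 1 alone, and 0.289 to 0.471 without single arrays. The receptor balance, -0.29, turned to 0.115 with the mean of all probes and to 0.505 with slide as a block and slide 1 alone, and was -0.69 to 0.007 without single arrays. Of all genes, limma called 2 in the main processing, 1 with normexp, 5 with the median of detected probes, with the mean of all probes, with slide as a random block and with slide 1 alone, 6 with trend and robust moderation, 7 with slide as a block, 0 to 3 without single arrays, and 0 with no filter, with probes above background on all arrays, with the replicate block, with the authors' value table and without replicate 1 of both groups; at an unadjusted p under 0.05 these last 5 gave 3490, 2250, 2413, 2289 and 1511 genes. With the replicate block no member changed its call, and Ddit4 gained an unadjusted p under 0.05. No scaling moved the median of all genes by more than 0.046.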
